A study of Homo sapiens with 16 samples.

Results

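The 8 genes described here encode subunits of Polycomb repressive complex 2 (PRC2) and readers of acetylated histones of the BET family. They were chosen by symbol: EZH2, EZH1, EED, SUZ12, JARID2, PHF19, BRD2 and BRD3. All 8 were found among the 34228 genes of the count table, and all 8 passed the filter on low counts in each comparison. RNA-Seq was performed on 2 human melanoma cell lines with acquired resistance to BRAF inhibitors, 451Lu-R and 1205Lu-R. Each was treated for 24 h with the solvent DMSO or with 2.5 μM corin, a bivalent inhibitor that blocks the lysine demethylase and the histone deacetylase of the CoREST repressor complex. Each of these 4 groups had 2 libraries. Both lines had been selected in rising doses of the BRAF inhibitor PLX4032 and were kept in 5 μM of it to maintain resistance, so all groups share that history. Whether PLX4032 was withdrawn before the 24 h treatment is not given in the sources used here. Libraries treated with PLX4032, alone or with corin, were not analysed here because no values per library were used for them.

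PRC2 places methyl groups on lysine 27 of histone H3, the mark of genes silenced by the Polycomb system. EZH2 or its paralog EZH1 is the catalytic subunit, EED binds the finished mark and is needed for activity, and SUZ12 is the scaffold that holds the complex together. Accessory subunits form alternative versions of PRC2: JARID2 belongs to one version and PHF19, a Polycomb-like protein that guides PRC2 to its targets, to another. BRD2 and BRD3 bind acetylated histone tails through paired bromodomains and help transcription to proceed at active genes. In melanoma EZH2 is known as a gene of proliferating and aggressive tumors, and BET readers have been studied as drug targets.

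Library totals ran from 9516687 to 11797788 estimated counts. The percentage of counts in mitochondrial genes was 2.98 and 3.07 in the DMSO libraries of 451Lu-R and 5.89 and 5.86 with corin. In 1205Lu-R it was 0.377 in both DMSO libraries and 0.705 and 0.707 with corin. This percentage therefore moved with corin in both lines, and its part in the results below was not tested. The melanocyte lineage genes SOX10 and TYR were at 0 in all 1205Lu-R libraries and present in all 451Lu-R libraries. The summed level of 9 markers of leukocytes, keratinocytes, endothelium and smooth muscle stayed between 2.14 and 15.7 CPM (estimated counts relative to the library's total, times 1000000). That sum was 2.14 to 4.26 CPM with DMSO and 14.6 to 15.7 CPM with corin in 451Lu-R cells, and 10.2 to 10.5 CPM and 12.3 to 14.9 CPM in 1205Lu-R. Of the other melanocyte lineage genes, PAX3 had 24.8 and 25.0 CPM and MITF 8.04 and 6.31 CPM in 1205Lu-R with DMSO. PMEL, MLANA, DCT and S100B had at most 1.04 CPM there.

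The DNA around the start sites of 4 PRC2 genes is shown because E2F-responsive genes of S phase, given further on, fell with corin in both lines. The windows are RefSeq sequences of GRCh38.p14 that hold 250 bases before and 50 after an annotated start, written 5′ to 3′ on the gene's own strand. Capitals mark 8-base E2F motifs (TTTCCCGC, TTTCGCGC, TTTGCCGC or TTTGGCGC) and CCAAT boxes, each searched on both strands.
PHF19, second annotated start, chr9:120877139-120877438, minus strand: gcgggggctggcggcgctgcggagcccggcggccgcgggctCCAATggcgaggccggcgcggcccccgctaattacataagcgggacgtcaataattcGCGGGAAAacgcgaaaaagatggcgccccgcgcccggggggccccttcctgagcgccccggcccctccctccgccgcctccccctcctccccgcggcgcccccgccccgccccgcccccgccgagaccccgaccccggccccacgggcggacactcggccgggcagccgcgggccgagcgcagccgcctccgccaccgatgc
EZH2, first annotated start, chr7:148884242-148884541, minus strand: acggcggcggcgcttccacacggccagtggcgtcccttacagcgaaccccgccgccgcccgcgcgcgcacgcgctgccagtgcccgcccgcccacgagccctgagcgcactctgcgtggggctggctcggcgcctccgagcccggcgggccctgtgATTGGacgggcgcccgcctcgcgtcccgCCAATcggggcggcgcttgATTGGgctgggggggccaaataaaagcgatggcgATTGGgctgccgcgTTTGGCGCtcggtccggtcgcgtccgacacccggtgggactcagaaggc
SUZ12, chr17:31936757-31937056, plus strand: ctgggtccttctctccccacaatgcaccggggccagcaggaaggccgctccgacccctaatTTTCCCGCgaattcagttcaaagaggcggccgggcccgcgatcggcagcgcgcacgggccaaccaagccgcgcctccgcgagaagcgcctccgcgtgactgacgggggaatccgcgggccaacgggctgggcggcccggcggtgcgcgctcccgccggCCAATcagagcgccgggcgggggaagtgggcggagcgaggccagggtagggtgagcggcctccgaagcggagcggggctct
JARID2, first annotated start, chr6:15245819-15246118, plus strand: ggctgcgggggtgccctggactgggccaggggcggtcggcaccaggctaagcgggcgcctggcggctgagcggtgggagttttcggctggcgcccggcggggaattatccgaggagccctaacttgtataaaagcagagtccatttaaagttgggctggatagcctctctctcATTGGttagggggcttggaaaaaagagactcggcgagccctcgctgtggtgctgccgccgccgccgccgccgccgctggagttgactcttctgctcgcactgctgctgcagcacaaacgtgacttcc
The PHF19 window holds an E2F motif whose first base is at -152 from the start site, and the EZH2 window holds one that begins 1 base after it, with 4 CCAAT boxes before it. The SUZ12 window holds an E2F motif at -189 and a CCAAT box at -31, and the JARID2 window holds only a CCAAT box at -77. All 8 genes had a window, 14 windows in all, and 4 of the 14 held an E2F motif, 1 each of EZH2, EZH1, SUZ12 and PHF19. The EZH1 motif, in a window not printed, is at -115, and EZH1 passed the test of corin against DMSO in neither line. The first annotated start of PHF19 and the second of EZH2, also not printed, have windows without an E2F motif. Of the 35116 windows in the RefSeq table, 3.315% held an E2F motif and 34.61% a CCAAT box. These shares are not matched for base composition. The 4 windows with an E2F motif had 74.67% (EZH2), 67% (EZH1), 73% (SUZ12) and 79.67% (PHF19) G or C bases, against a median of 58.67% over all windows. A match describes the letters of a window and is not evidence of a bound site. Whether the E2F letters relate to the responses to corin given below was not tested.

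Corin was compared with DMSO in each line to ask how blocking CoREST changes transcription. With edgeR's quasi-likelihood test and an adjusted p under 0.05, 6 of the 8 genes differed in 451Lu-R cells and 5 of the 8 in 1205Lu-R. The background was high: 79.9% of 14530 genes tested passed in 451Lu-R cells and 78.3% of 14563 in 1205Lu-R, so the share of members that passed was no higher than that of all genes. In 451Lu-R cells 3 members rose (SUZ12, JARID2, BRD2) and 3 fell (EZH2, PHF19, BRD3), where 41.3% of all genes rose and 38.6% fell. In the 1205Lu-R line 2 rose (JARID2, BRD2) and 3 fell (SUZ12, EED, PHF19), where 40.4% of all genes rose and 37.8% fell. The corin and DMSO libraries did not overlap for 7 of the 8 members in each line, against 89.2% and 88.1% of the genes tested. At a fold change of at least 2, PHF19 passed in both lines and JARID2 in 1205Lu-R, where the background was 35.6% in 451Lu-R cells and 31.8% in 1205Lu-R. The median log2 fold change of the 8 genes was -0.01 in 451Lu-R against 0.03 over all genes tested, and 0.03 in 1205Lu-R, where all genes also had 0.03. The members therefore did not move together, and each is described by its own values.

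**Figure D1:**
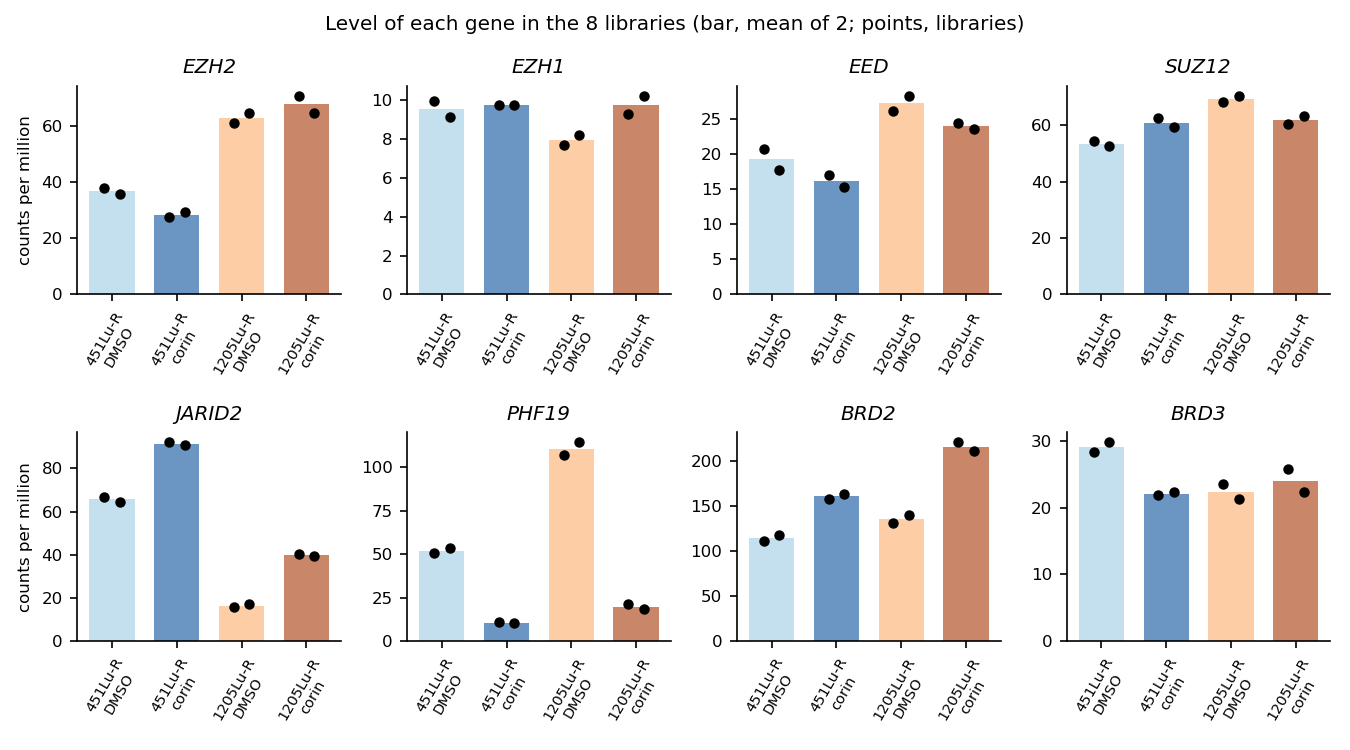
Level of the 8 genes in CPM (vertical axis, one scale per panel) in the 4 groups; points are the 8 libraries and bars the mean of 2. PHF19 falls from 50.5 and 53.5 to 11.2 and 10.1 in 451Lu-R cells and from 107 and 114 to 21.4 and 18.3 in 1205Lu-R, while JARID2 and BRD2 are higher with corin in both lines.

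Of the catalytic subunits, EZH2 (ENSG00000106462, GRCh38 chr7:148807257-148884321, minus strand) fell slightly in 451Lu-R cells. Its level was 37.7 and 35.6 CPM with DMSO and 27.4 and 29.3 CPM with corin in 451Lu-R, so the corin libraries lay below both DMSO libraries. In 1205Lu-R it was 60.8 and 64.4 CPM with DMSO and 70.5 and 64.6 CPM with corin, apart by a narrow gap. The log2 fold change was -0.28 (SE 0.078) in 451Lu-R with an edgeR adjusted p of 0.00301, which DESeq2 did not call (adjusted p = 0.112). In 1205Lu-R it was 0.03 (95% confidence interval -0.08 to 0.15), with an edgeR adjusted p of 0.599. In bulk libraries such as these, a lower level per cell and fewer cells with the transcript cannot be told apart.

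EZH1 (ENSG00000108799, chr17:42700275-42745049, minus strand), the paralog that also serves in cells that divide little, was the least abundant member per length in all 4 groups. It stood at 9.94 and 9.13 CPM with DMSO and 9.71 and 9.74 CPM with corin in 451Lu-R cells. In 1205Lu-R the DMSO libraries had 7.69 and 8.17 CPM and the corin libraries 9.27 and 10.2 CPM, which did not overlap. The log2 fold change was 0.13 (95% confidence interval -0.17 to 0.42) in 451Lu-R cells and 0.22 (-0.08 to 0.53) in 1205Lu-R, and neither passed the test. EZH1 had 85 to 115 estimated counts per library.

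Per kilobase of exon, EZH1 made up 28.6% ± 0.41 (SD, n = 2) of the sum of EZH1 and EZH2 in 451Lu-R with DMSO and 34.6% ± 1.03 with corin. In 1205Lu-R the share was 16.3% ± 0.038 with DMSO and 18.2% ± 1.91 with corin. EZH2 was thus the larger part of the catalytic mRNA in every library. The corin libraries had the higher shares in each line, but 2 libraries against 2 cannot give an exact permutation p below 0.333, the value found in both lines (2-sided). With the length of the longest transcript in place of all exons, the shares were 20.2% and 25.0% in 451Lu-R cells and 11.0% and 12.3% in 1205Lu-R, in the same order.

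Of the core subunits, SUZ12 (ENSG00000178691, chr17:31937007-32001038, plus strand) moved in opposite directions in the lines. It rose from 54.2 and 52.4 CPM to 62.6 and 59.1 CPM in 451Lu-R cells and fell from 68.0 and 70.3 CPM to 60.3 and 63.1 CPM in 1205Lu-R. The groups did not overlap in either line, and with corin the libraries of the lines overlapped. The log2 fold change was 0.29 (SE 0.061; edgeR adjusted p = 0.000217) in 451Lu-R cells and -0.24 (SE 0.053; edgeR adjusted p = 0.000343) in 1205Lu-R. The partial copy SUZ12P1 had 33 to 68 estimated counts per library and could share reads with SUZ12. With the counts of both summed, an alternative chosen after seeing the data, the log2 fold changes were 0.28 and -0.19.

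EED (ENSG00000074266, chr11:86201212-86278813, plus strand) passed the test in 1205Lu-R, where it fell. The levels there were 26.2 and 28.3 CPM with DMSO and 24.5 and 23.6 CPM with corin, without overlap. In 451Lu-R they were 20.8 and 17.8 CPM with DMSO and 17.0 and 15.3 CPM with corin, also without overlap, though the nearest DMSO and corin libraries lay close together. The log2 fold change was -0.26 (SE 0.087; edgeR adjusted p = 0.011) in 1205Lu-R and -0.16 (95% confidence interval -0.39 to 0.07; edgeR adjusted p = 0.194) in 451Lu-R. In 451Lu-R cells EED passed with scaling by library size only (edgeR adjusted p = 0.0398) and without DMSO replicate 2 (0.0434). The call in 1205Lu-R was lost with DESeq2 (adjusted p = 0.163), with scaling by library size only (edgeR adjusted p = 0.0631), and without replicate 2 of either group (edgeR adjusted p = 0.0695 without the DMSO library and 0.0603 without the corin library).

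Among the PRC2 members the accessory subunits showed the widest changes, and in opposite directions. PHF19 (ENSG00000119403, chr9:120855651-120894896, minus strand) fell in both lines. In 451Lu-R the DMSO libraries had 50.5 and 53.5 CPM (551 and 517 estimated counts) and the corin libraries 11.2 and 10.1 CPM (132 and 101). In 1205Lu-R the DMSO libraries had 107 and 114 CPM (1184 and 1215 estimated counts) and the corin libraries 21.4 and 18.3 CPM (204 and 203). All 4 corin libraries lay far below all 4 DMSO libraries, even across the lines. PHF19 was 4.54-fold lower with corin in 451Lu-R cells (log2 fold change -2.18, SE 0.090; edgeR adjusted p = 1.62e-14) and 5.90-fold lower in 1205Lu-R (-2.56, SE 0.068; edgeR adjusted p = 6.65e-19). Only 2.14% of the genes tested had a lower log2 fold change in 451Lu-R cells, and 0.542% in 1205Lu-R. Leaving out any 1 library gave -2.26 to -2.11 in 451Lu-R cells and -2.67 to -2.44 in 1205Lu-R.

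JARID2 (ENSG00000008083, chr6:15246069-15522042, plus strand) rose in both lines. It went from 67.0 and 64.4 CPM with DMSO to 92.1 and 91.0 CPM with corin in 451Lu-R cells, and from 15.6 and 16.9 CPM to 40.5 and 39.3 CPM in 1205Lu-R. Within each line the groups were well apart, but the corin libraries of 1205Lu-R stayed below the DMSO libraries of 451Lu-R. The log2 fold change was 0.58 (SE 0.050; edgeR adjusted p = 1.89e-09) in 451Lu-R cells and 1.22 (SE 0.086; edgeR adjusted p = 2.18e-11) in 1205Lu-R, the latter a 2.33-fold rise. These are common sizes in this experiment, since 31.1% of the genes tested in 451Lu-R cells and 18.9% in 1205Lu-R had a higher log2 fold change.

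**Figure D2:**
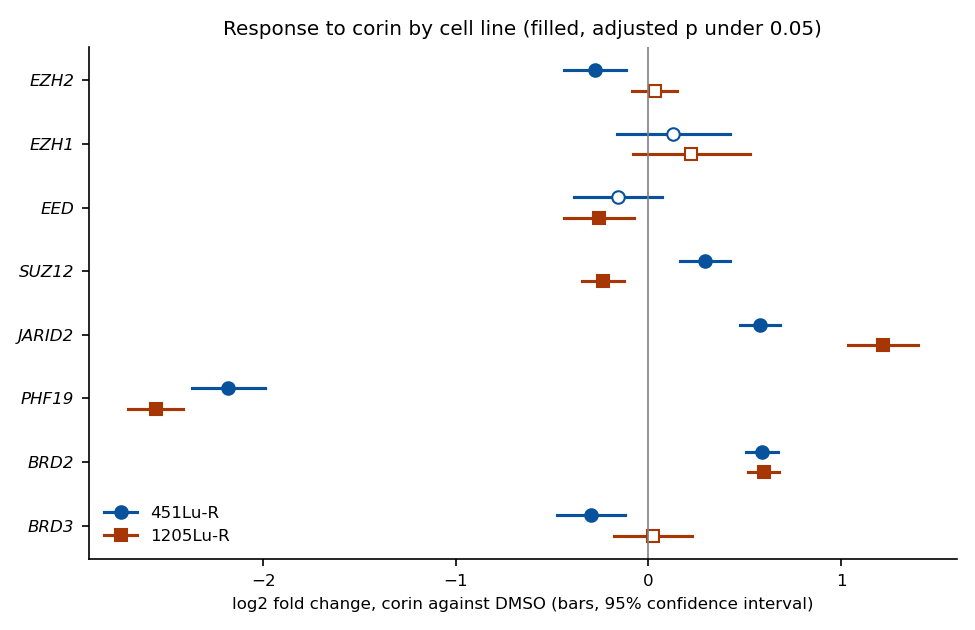
Log2 fold change of corin against DMSO (horizontal axis) for the 8 genes in 451Lu-R cells (circles) and 1205Lu-R (squares), with 95% confidence intervals from edgeR; filled symbols have an adjusted p under 0.05. PHF19 stands at -2.18 and -2.56, JARID2 at 0.58 and 1.22 and BRD2 at 0.59 and 0.60, and the SUZ12 intervals lie on opposite sides of 0.

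To set the subunits side by side, counts were divided by the total length of each gene's exons. On this scale, in CPM per kilobase, PHF19 was the highest of the 8 genes in 1205Lu-R with DMSO at 74.0 ± 3.63 (SD, n = 2), while JARID2 stood at 11.5 ± 0.68. With corin the order of the pair turned, to 12.7 ± 1.44 for PHF19 and 26.9 ± 0.56 for JARID2. In 451Lu-R the level of PHF19 went from 31.4 ± 1.20 to 5.92 ± 0.43 and that of JARID2 from 41.8 ± 1.26 to 53.7 ± 0.43. With the longest transcript as the length, an alternative chosen after seeing the data, JARID2 was above PHF19 with corin in both lines too (40.8 and 6.87 in 451Lu-R cells, 19.8 and 14.3 in 1205Lu-R cells). With DMSO in 451Lu-R that length gave the other order, 30.5 for JARID2 and 34.9 for PHF19, so which of them was higher there depends on the length used.

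**Figure D3:**
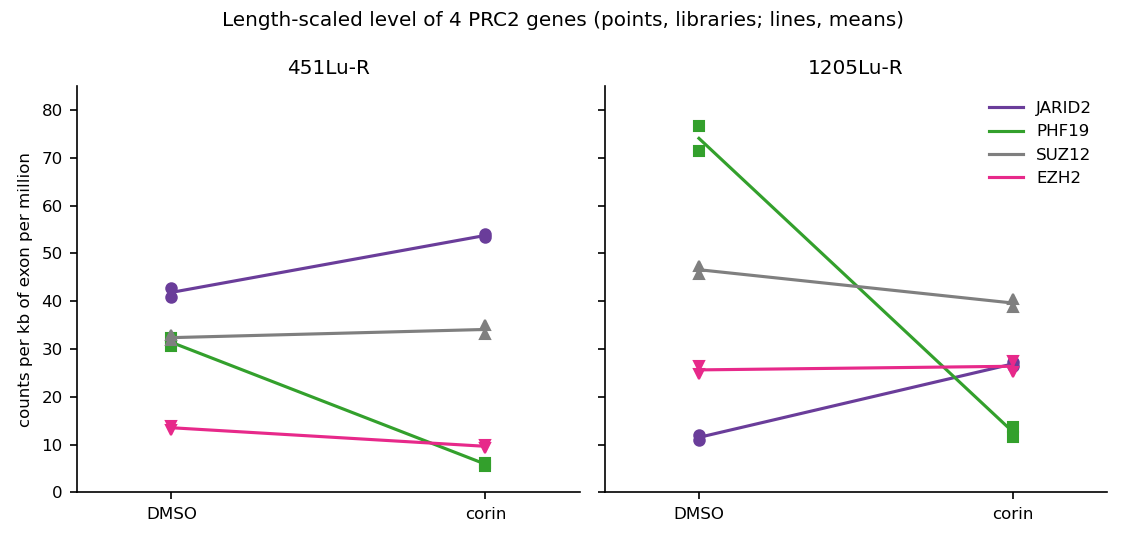
CPM per kilobase of exon (vertical axis) of JARID2, PHF19, SUZ12 and EZH2 with DMSO and with corin in 451Lu-R cells (left) and 1205Lu-R (right); points are libraries and lines join the means of 2. In 1205Lu-R PHF19 goes from 74.0 to 12.7 and crosses JARID2, which goes from 11.5 to 26.9.

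The full order per length was BRD2, JARID2, SUZ12, PHF19, BRD3, EZH2, EED and EZH1 in 451Lu-R with DMSO, from 50.7 down to 5.43. There SUZ12 and PHF19 overlapped between libraries, and all other neighbours were apart. With corin in 451Lu-R PHF19 moved down to the place above EZH1, and no neighbours overlapped. In 1205Lu-R with DMSO the order was PHF19, BRD2, SUZ12, EZH2, EED, BRD3, JARID2 and EZH1, from 74.0 to 5.00. With corin it was BRD2, SUZ12, JARID2, EZH2, BRD3, EED, PHF19 and EZH1, from 101 to 5.86, and 2 pairs of neighbours overlapped: JARID2 with EZH2 and BRD3 with EED. These orders depend on the length used. With the longest transcript, PHF19 (34.9) stood above JARID2 (30.5), and EZH2 (22.7) and EED (19.4) above BRD3 (14.3), in 451Lu-R with DMSO. By that length EZH2 (16.8) and EED (15.6) also stood above BRD3 (10.4) in 451Lu-R with corin. For 1205Lu-R with corin, EZH2 (44.8) stood above SUZ12 (41.0), EED (25.9) above JARID2 (19.8) and PHF19 (14.3) above BRD3 (12.7). EZH1 was lowest in all 4 groups with either length.

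Of the BET readers, BRD2 (ENSG00000204256, chr6:32968594-32981505, plus strand) rose in both lines. The level was 111 and 118 CPM with DMSO and 158 and 164 CPM with corin in 451Lu-R cells. In 1205Lu-R it was 131 and 140 CPM with DMSO and 221 and 211 CPM with corin. The groups did not overlap in either line. The log2 fold change was 0.59 (SE 0.040; edgeR adjusted p = 4.05e-11) in 451Lu-R cells and 0.60 (SE 0.038; edgeR adjusted p = 4.09e-12) in 1205Lu-R, the latter a 1.51-fold rise. In each line 30.7% of the genes tested had a higher log2 fold change.

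BRD3 (ENSG00000169925, chr9:134030305-134068535, minus strand) fell in 451Lu-R. It had 28.4 and 29.8 CPM with DMSO and 21.9 and 22.3 CPM with corin there, without overlap. In 1205Lu-R it had 23.5 and 21.3 CPM with DMSO and 25.9 and 22.3 CPM with corin, which overlapped. The log2 fold change was -0.30 (SE 0.084; edgeR adjusted p = 0.00312) in 451Lu-R, which DESeq2 did not call (adjusted p = 0.119), and 0.02 (95% confidence interval -0.18 to 0.23) in 1205Lu-R. BRD3 overlaps BRD3OS on the opposite strand, a gene with a mean of 137 estimated counts, and whether counting used the strand is not given in the sources used here.

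Per kilobase of exon, BRD3 made up 24.9% ± 0.095 (SD, n = 2) of the sum of BRD2 and BRD3 in 451Lu-R with DMSO and 15.2% ± 0.13 with corin. In 1205Lu-R it made up 17.8% ± 1.66 with DMSO and 12.7% ± 0.81 with corin. The share was lower in both corin libraries of each line than in both DMSO libraries, with an exact permutation p of 0.333 in each line, the smallest that 2 against 2 allows (2-sided). BRD2 was the larger part in all 8 libraries.

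The difference between the lines in the response to corin was tested with an interaction term over the 8 libraries. At an adjusted p under 0.05 it passed for 4 of the 8 genes, against 49.7% of 16062 genes tested, and for none of the 8 at a difference of 2-fold or more, against 18.8%. The response in 1205Lu-R minus that in 451Lu-R was -0.57 on the log2 scale for SUZ12 (edgeR adjusted p = 2.34e-06) and 0.60 for JARID2 (edgeR adjusted p = 1.46e-05). JARID2 thus rose by a larger factor in 1205Lu-R, where its level was lower. The difference was 0.27 for EZH2 (edgeR adjusted p = 0.0233) and -0.42 for PHF19 (edgeR adjusted p = 0.0113). At an adjusted p under 0.05, the SUZ12 and JARID2 differences held in every alternative fit and with each library left out, whereas those of EZH2 and PHF19 did not. With a fold change of at least 4 and an adjusted p under 0.001 no member was called for this term. EZH2 was lost with DESeq2 (adjusted p = 0.0956) and without replicate 1 of any of the 4 groups (edgeR adjusted p = 0.0762 to 0.142). PHF19 was lost with scaling by library size only (edgeR adjusted p = 0.204), without 451Lu-R corin replicate 1 (0.163) and without 1205Lu-R corin replicate 2 (0.137). For BRD2 the difference was -0.03 (95% confidence interval -0.15 to 0.09), and it turned to 0.18 with scaling by library size only (edgeR adjusted p = 0.0127), which shifted the median of all genes in this term by 0.21. For BRD3 it was 0.29 (edgeR adjusted p = 0.0727), which passed under that scaling (0.50; edgeR adjusted p = 0.00262) and without 1205Lu-R corin replicate 2 (0.41; edgeR adjusted p = 0.0236). Among all genes called for this term, 45.4% had the higher log2 response to corin in 1205Lu-R, and 64.0% with scaling by library size only.

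The lines were also compared with each other under the same treatment. With DMSO, 7 of the 8 passed the test between 1205Lu-R and 451Lu-R. This is near the share of all genes, 82.5% of 14104 tested. On the log2 scale 1205Lu-R was higher by 1.20 for PHF19 (edgeR adjusted p = 2.68e-16), 0.88 for EZH2 (5.14e-12), 0.60 for EED (5.14e-06), 0.48 for SUZ12 (3.03e-08) and 0.35 for BRD2 (1.06e-07). JARID2 was 3.75-fold lower in 1205Lu-R (log2 fold change -1.91, SE 0.078; edgeR adjusted p = 2.35e-17), the widest difference among the members. BRD3 was lower by a log2 fold change of -0.27 (edgeR adjusted p = 0.00825), a call that DESeq2 did not make (adjusted p = 0.149) and that was lost without 1205Lu-R DMSO replicate 2 (edgeR adjusted p = 0.11). The median over the 8 genes was 0.42, against -0.01 over all genes. With corin, 5 of the 8 passed, against 79.2% of 15363 genes. SUZ12 was no longer among them (log2 fold change -0.07; edgeR adjusted p = 0.262), EZH2 differed by 1.16 (edgeR adjusted p = 3.37e-11), PHF19 by 0.80 (9.52e-06) and JARID2 by -1.29 (1.76e-13). These comparisons share libraries with those of corin against DMSO. Each line is 1 cell line, so differences between the lines cannot be told apart from differences between any cells of separate origin.

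Other genes of the Polycomb and BET systems give the setting. Of 8 other PRC2 genes tested, 4 rose and 4 fell in 451Lu-R cells, and 2 rose and 4 fell in 1205Lu-R (median log2 fold change 0.11 and -0.16). Among all genes tested, 41.3% rose and 38.6% fell in 451Lu-R cells, and 40.4% and 37.8% in 1205Lu-R. PHF1, like PHF19 a Polycomb-like protein, fell from 20.1 ± 2.21 to 8.48 ± 0.11 CPM (SD, n = 2) in 451Lu-R cells and from 26.3 ± 0.41 to 10.2 ± 0.71 CPM in 1205Lu-R (log2 fold change -1.15 and -1.44). MTF2, the remaining Polycomb-like gene, rose in 451Lu-R cells (0.51; edgeR adjusted p = 4.27e-06) and had a log2 fold change of 0.11 in 1205Lu-R (edgeR adjusted p = 0.215). MTF2 was outside the naming rule and was picked after its values were seen. EPOP, which joins the Polycomb-like version of PRC2, rose by 1.61 and 1.41 on the log2 scale, and the histone-binding subunit RBBP4, shared with deacetylase complexes, had log2 fold changes of -1.09 and -1.01. LCOR, whose locus encodes a further partner of that version, rose by 0.99 in 451Lu-R cells and 0.30 in 1205Lu-R.

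PRC1 is the complex that binds the PRC2 mark and ubiquitinates histone H2A. Among 24 PRC1 genes, 9 rose and 10 fell in 451Lu-R cells, and 8 rose and 10 fell in 1205Lu-R. All genes tested were split in a similar way: 41.3% rose and 38.6% fell in 451Lu-R cells, and 40.4% and 37.8% in 1205Lu-R. BCOR, a corepressor of a variant form of PRC1, went from 60.1 ± 3.06 to 7.39 ± 0.02 CPM in 451Lu-R cells (log2 fold change -2.93) and from 58.1 ± 3.40 to 97.2 ± 0.56 CPM in 1205Lu-R (0.67). That difference between the lines was 3.56 on the log2 scale (edgeR adjusted p = 6.87e-17), wider than for any of the 8 members. PCGF2 fell in both lines (-1.68 and -1.46), and BCORL1 (2.32 and 1.56) and RYBP (1.68 and 0.72) rose in both. Of the genes that remove the Polycomb marks, BAP1, the deubiquitinase that opposes PRC1, fell in both lines (-0.75 and -1.14), KDM6B, a demethylase of the PRC2 mark, fell in both (-0.62 and -0.33), and the demethylase gene KDM6A rose in 451Lu-R cells (0.70). In 1205Lu-R KDM6A had -0.23 (edgeR adjusted p = 0.065), which passed without the filter (0.038) and in the fit of all 8 libraries (0.0429). The difference between the lines for KDM6A was -0.96 (edgeR adjusted p = 2.48e-06). The KDM6B call in 1205Lu-R was lost with DESeq2 (adjusted p = 0.28), RLE size factors (edgeR adjusted p = 0.0508), library size only (0.121), a mean of at least 1 CPM (0.0578), and without either DMSO library or corin replicate 1 (0.0617 to 0.339).

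In the BET and elongation list 6 genes rose and 8 fell of 16 tested in 451Lu-R cells, and 6 rose and 9 fell in 1205Lu-R. HEXIM1, an inhibitor of the elongation kinase P-TEFb, rose by 1.40 and 1.82 on the log2 scale, and MEPCE, which stabilises the inhibitory complex, had log2 fold changes of -1.99 and -0.98. AFF1 (1.73 and 1.17) and ELL2 (1.70 and 1.09) of the super elongation complex rose in both lines. Among 32 other bromodomain genes 22 fell and 7 rose in 451Lu-R cells, and 23 fell and 7 rose of 31 tested in 1205Lu-R. Over all genes tested, 41.3% rose and 38.6% fell in 451Lu-R cells, and 40.4% rose and 37.8% fell in 1205Lu-R. ZMYND8 had log2 fold changes of -2.74 and -2.90. In 451Lu-R cells CECR2 rose by 2.62 on the log2 scale and KAT2A had -2.16, and in the other line ZMYND11 had -2.01.

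Of 22 E2F-responsive genes of S phase 20 fell and none rose in 451Lu-R cells, and 21 fell and 1 rose in 1205Lu-R. Of all genes tested, 38.6% fell in 451Lu-R cells and 37.8% in 1205Lu-R. The E2F list had medians of -1.23 and -1.36 on the log2 scale. PHF19 lay below both medians, whereas EZH2, at -0.28 and 0.03, and SUZ12, at 0.29 and -0.24, did not. CCNE2, which drives entry into S phase, had -2.30 and -2.63, and MCM7, a subunit of the replicative helicase, had -1.99 and -2.14. Both were named because their changes were among the largest of the list in 451Lu-R cells. A link between PHF19 and these genes was not tested. A further list held 22 genes that carry the PRC2 mark where they are silent: developmental regulators and the cell-cycle inhibitors CDKN2A and CDKN2B. Only 10 had enough counts to be tested in 451Lu-R cells and 13 in 1205Lu-R. Genes that pass that filter through the corin libraries alone are bound to be higher. Among those tested, 7 rose and 1 fell in 451Lu-R cells and 7 rose and 2 fell in 1205Lu-R, where 41.3% and 40.4% of all genes rose. The 7 in 451Lu-R cells include CDKN2B (log2 fold change 2.53) and CDKN2A (0.086; edgeR adjusted p = 0.0413). Neither was silent there with DMSO, at means of 32.9 CPM for CDKN2B and 140 CPM for CDKN2A. The CDKN2A mean with corin was 139 CPM. The tested genes include some at 3 counts or fewer in both DMSO libraries: NEUROG2 in 451Lu-R cells, and LHX2 and DLX5 in 1205Lu-R. The counts of genes that rose are therefore in part fixed by the filter. GATA6 rose in both lines (log2 fold change 1.79 and 0.21), and WT1 fell in both (-0.95 and -0.94). The GATA6 call in 1205Lu-R was lost with DESeq2 (adjusted p = 0.225), without the filter (edgeR adjusted p = 0.139), in the fit of all 8 libraries (0.0573), and without replicate 1 of either group (0.486 without the DMSO library and 0.125 without the corin library).

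**Figure D4:**
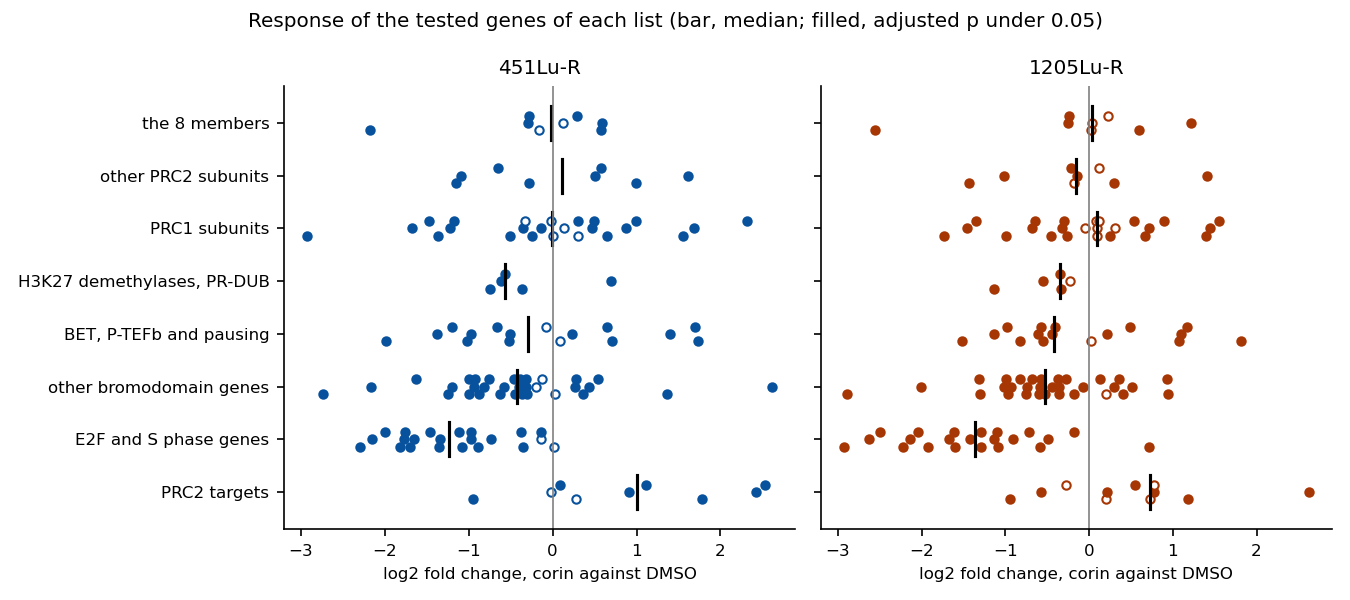
Log2 fold change of corin against DMSO (horizontal axis) of the tested genes in each list, in 451Lu-R cells (left) and 1205Lu-R (right); each point is a gene, filled where the adjusted p is under 0.05, and the bar is the median of all tested genes of the list. Genes at 3 counts or fewer in both libraries of a group are not drawn, namely NEUROG2 in 451Lu-R cells and ASXL3, LHX2 and DLX5 in 1205Lu-R. The members spread around 0 with PHF19 far to the left, and the E2F list has medians of -1.23 and -1.36.

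The genes whose pattern over the 8 libraries was most like that of each member were sought among 14432 genes with a mean of at least 1 CPM, by the root mean square difference of centred log2(CPM + 1) values. For PHF19 these were DDX39A (0.141), an RNA helicase gene of mRNA export, and RTEL1 (0.154), a helicase gene of telomere maintenance. DDX39A had mean levels of 111 and 21.6 CPM with DMSO and corin in 451Lu-R cells and 206 and 45.5 CPM in 1205Lu-R. For JARID2 they were FOXN3 and NEK9 (0.049 each), for EZH2 RGP1 (0.056) and TUBA1C (0.057), and for BRD2 SLC25A25 (0.039) and METAP1 (0.048). SUZ12 was nearest to PDHA1 (0.044), EED to FMNL2 (0.052), EZH1 to SEC23IP (0.051) and BRD3 to YTHDC1 (0.055). PHF19 varied most among the members, and its nearest genes were also the farthest from it on this measure.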

How the data were processed

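RNA-Seq of 451Lu-R and 1205Lu-R cells was analysed. Reads were trimmed (Trimmomatic) and assigned by Salmon to GENCODE 32 transcripts (GRCh38), and the authors deposited estimated counts per gene with no normalization. Tool versions, strand and whether replicates were separate cultures are not given in the sources used here, so p-values measure only the spread between these libraries. Deposited tables of the authors' own comparisons of PLX4032 plus corin with PLX4032 (fold changes and p-values) were not used.

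Symbols and lengths came from GENCODE 44 (34052 of 34228 genes matched). Estimated counts were rounded and tested with edgeR 4.0.16 in R 4.3.3 (filterByExpr, TMM, glmQLFit, glmQLFTest, 2-sided, Benjamini-Hochberg adjustment over all genes tested), tested beforehand on simulated data. Each comparison used the libraries of its 2 groups, and the interaction used all 8. The chi-square between replicates, over its degrees of freedom, was 1.34 to 1.40. CPM are estimated counts divided by the library total, times 1000000. The adjusted p threshold was 0.05. Alternatives were DESeq2 1.42.0, other scalings, filters, thresholds and fits, a replicate block, other lengths, and leaving out each library; 1 library then stands for its group and is assumed to vary like the others.

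The members, lists and tests were chosen with earlier results of these data known. Named genes were the 8 members, up to 4 genes of each list and line with the largest change (adjusted p under 0.05, mean of at least 1 CPM, groups apart), marker genes, and each member's 2 nearest genes by pattern.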

Additional observations from a re-analysis of the deposited data

Results flagged for a closer look

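The response to corin differed between 1205Lu-R and 451Lu-R for 4 of the 8 genes by edgeR's interaction term, which 49.7% of all genes tested also passed. On the log2 scale the response in 1205Lu-R minus that in 451Lu-R was -0.57 for SUZ12, which was higher in both corin libraries of 451Lu-R and lower in both of 1205Lu-R than in the DMSO libraries. It was 0.60 for JARID2, which rose in both lines and by a larger factor in 1205Lu-R, where its level was lower. For PHF19 it was -0.42 and for EZH2 0.27, and these depended on the scaling, the tool or single libraries, as given with the interaction results.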

How the results depend on the processing

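The corin responses of PHF19, JARID2, BRD2 and SUZ12 held their direction and an adjusted p under 0.05 in every alternative fit and with each library left out; calls that others lost stand beside their values. With a fold change of at least 4 and an adjusted p under 0.001 (edgeR), 1803 genes were higher and 395 lower with corin in 451Lu-R cells (members 0 and 1), 1650 and 208 in 1205Lu-R cells (members 0 and 1), 391 and 502 for the interaction, 1429 and 1493 between the lines with DMSO, and 1298 and 1313 with corin (members 0 and 0 in these 3). The counts of members called in other fits, given next, stand without the share of all genes called in the same fit. They cannot be set against the background. DESeq2 called 1 member lower in 451Lu-R cells, 1 higher for the interaction and 1 lower in 1205Lu-R with DMSO. Scaling by library size only gave 4 members higher and 1 lower for the interaction. It turned the interaction value of EED to 0.073 and of BRD2 to 0.18, and the line difference with corin of EZH1 to 0.0019 and of SUZ12 to 0.018. Without the filter EZH2 was at -0.013 and BRD3 at -0.021 in 1205Lu-R cells. Leaving out 1 library gave 1 to 3 members higher and 1 to 2 lower for the interaction and 1 to 2 lower between lines with DMSO. It moved uncalled values across 0: EZH2 (-0.029 to 0.096) and BRD3 (-0.080 to 0.13) with corin in 1205Lu-R, EZH1 (-0.025 to 0.14) and BRD2 (-0.080 to 0.021) for the interaction, BRD3 (-0.066 to 0.15) between lines with corin, and DLX5 (-0.092 to 0.61) in 451Lu-R. By longest transcript EZH1 took 20.2% and 25.0% in the 451Lu-R groups and 11.0% and 12.3% in the 1205Lu-R groups, and BRD3 21.5%, 12.9%, 15.1% and 10.7%. Libraries with the same replicate number did not deviate together (r = -0.006 for 451Lu-R and -0.018 for 1205Lu-R, across genes); with a replicate block 3 members were higher and 3 lower with corin for 451Lu-R, 2 and 3 for the other line, and no member's call changed. The causes of these shifts were not tested. EZH1, with 85 to 115 counts a library, has the widest intervals.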
